A study of Sus scrofa with 23 samples.

Results

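UCP2 (ENSSSCG00000014833), the gene of mitochondrial uncoupling protein 2, was followed in the backfat of 23 fattening pigs. It is 1 of the 25322 gene identifiers counted in each pig, and it was selected on its measured levels in the diet groups. Backfat is the subcutaneous fat of the back, and its RNA was sequenced to ask how corn dried distillers grains with solubles (cDDGS) and the added fat change gene expression. The control diet had rapeseed oil and no cDDGS, and was fed to 4 females and 3 males (group I, -cDDGS+rapeseed oil). The same oil with cDDGS was fed to 3 pigs of each sex (group II, +cDDGS+rapeseed oil). Beef tallow with cDDGS (group III, +cDDGS+beef tallow) went to 2 females and 3 males. Coconut oil with cDDGS went to 3 females and 2 males (group IV, +cDDGS+coconut oil). All pigs were crossbred fatteners, and the study could not obtain undegraded RNA. According to the study, the females were gilts and the males were barrows, that is, castrated. Pigs are named here by the numbers in the sample labels.

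UCP2 is a carrier of the inner mitochondrial membrane, a relative of UCP1, the thermogenic protein of brown fat. It is found in many tissues, white fat and immune cells among them, and is studied for its part in the handling of mitochondrial substrates and reactive oxygen species. FASN, fatty acid synthase, and ACLY, ATP citrate lyase, are enzymes of the route that makes fatty acids from citrate, a pathway that is highly active in pig fat.

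In the RefSeq annotation of Sscrofa11.1, UCP2 is a protein-coding gene on chromosome 9 from 8358559 to 8364552. Its neighbour DNAJB13 ends at 8358617 and shares 59 bases with it. UCP3, the other uncoupling protein of the locus, lies on the far side, from 8378023 to 8389452, 13470 bases away. The count files carry no coordinates, so these positions were matched by symbol only.

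The depth of the libraries ran from 2437172 to 7979426 gene reads, with a median of 4717511. UCP2 was a gene of low abundance, with 643 reads over all pigs, from 5 in pig 24 to 87 in pig 5. Levels are given as CPM, the reads of a gene for every 1000000 gene reads of the pig after TMM scaling. The 95% exact Poisson interval of each value covers counting error only.

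The UCP2 level was highest in group I and lower in each of the groups with cDDGS. In group I it ran from 3.80 CPM in pig 3 through a median of 12.5 CPM to 16.4 CPM in pig 5. This group was split, as pigs 1 and 3 stood at 5.48 and 3.80 CPM and the other 5 pigs at 10.3 CPM or more. In group II the level ran from 2.17 CPM in pig 24 through a median of 4.77 CPM to 8.23 CPM in pig 19. Pigs 19 and 21 were the high ones of that group, at 8.23 and 7.53 CPM.

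The level in group III was 2.93 CPM in pig 41, 3.40 in pig 43, 2.99 in pig 45, 2.17 in pig 46 and 4.46 in pig 48. In group IV it was 2.72 CPM in pig 49, 5.47 in pig 52, 4.66 in pig 53, 3.64 in pig 54 and 4.60 in pig 55. The pigs of both groups lay close together, and all of them lay under the second-lowest pig of group I, pig 52 by the small margin of 5.47 against 5.48 CPM. Taken over groups II, III and IV, 14 of 16 pigs were under that pig and 16 of 16 were under the third-lowest, while 8 of 16 were under the lowest. Group I therefore overlapped the others through its 2 low pigs alone, both of them females.

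**Figure D1:**
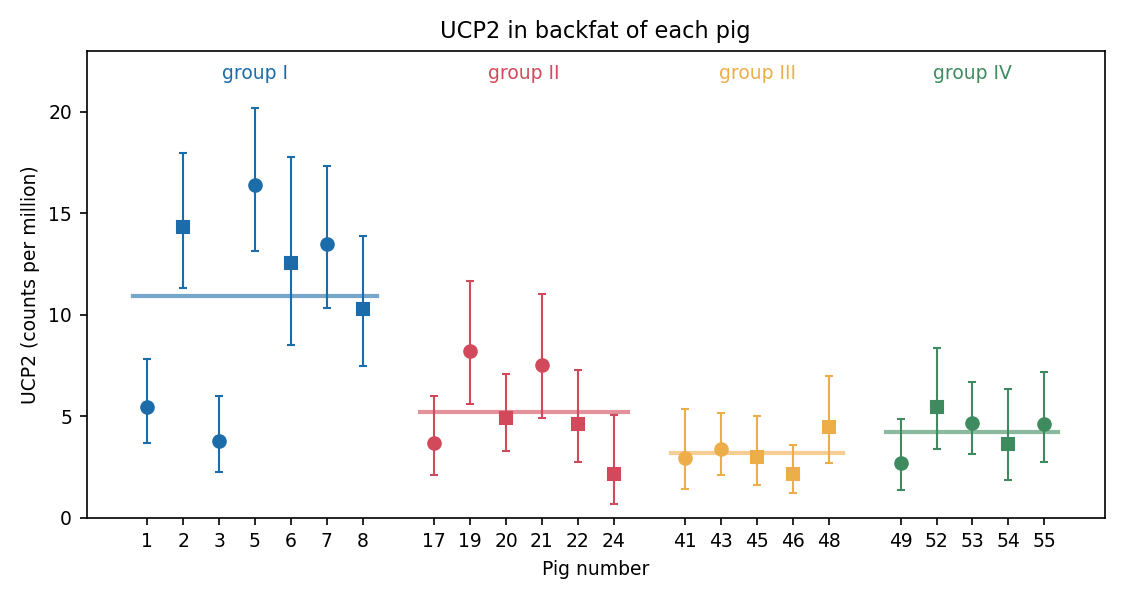
UCP2 level in CPM, labelled counts per 1000000 reads (vertical axis), of each of the 23 pigs (horizontal axis, pig number), coloured by diet group. Circles are females, squares are males, bars are 95% counting intervals and horizontal lines are group means. In group I, 5 pigs lie above every pig fed cDDGS, and pigs 1 and 3 lie among them.

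In descending order, group I had a mean of 10.9 ± 4.68 CPM (SD, n = 7), group II of 5.19 ± 2.30 CPM (SD, n = 6), group IV of 4.22 ± 1.06 CPM (SD, n = 5) and group III of 3.19 ± 0.840 CPM (SD, n = 5). Group I exceeded group II by 5.71 CPM, more than the SD of either group. Groups II and IV were 0.975 CPM apart, less than the SD of either. Groups IV and III were 1.03 CPM apart, just under the SD of group IV and above that of group III. Over groups II, III and IV together the mean was 4.26 ± 1.73 CPM (SD, n = 16), and the mean of group I was 2.56 times as high.

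Much of the spread within groups III and IV was of the size that counting gives. Counting alone would give an SD of 0.822 CPM in group III and 1.01 CPM in group IV, near the SDs observed there. In group I the counting SD was 1.61 CPM and in group II 1.17 CPM, both well under the observed SDs. The variance of the reads divided by their expected value, which is 1 for pure counting error, was 10.2 for group I and 3.24 for group II, against 1.18 for group III and 1.05 for group IV.

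On the log2 scale of the edgeR fit, UCP2 differed from group I by -1.05 (SE 0.34) with cDDGS and rapeseed oil (group II), -1.77 (SE 0.35) with beef tallow (group III) and -1.35 (SE 0.34) with coconut oil (group IV). The difference of the combined groups II, III and IV from group I was -1.35 (SE 0.25). Since UCP2 was chosen for these differences, they are given as a description and no test is attached. As background, 0.349% of genes had a log2 fold change as low or lower with group II. The share was 0.048% with group III, 0.135% with group IV and 0.0465% in the combined comparison. These comparisons share the pigs of group I.

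Among the groups fed cDDGS the differences were smaller. Group III differed from group II by -0.72 (SE 0.32) and group IV from group II by -0.32 (SE 0.31), while group IV differed from group III by 0.42 (SE 0.27). With the share of reads outside annotated genes as a covariate, the difference of group II from group I became -1.34 and that of group IV -1.05. That share was 68.5% in pig 19, 69.2% in pig 21 and 71.3% in pig 54, the only pigs above 65%. Without these 3 pigs the difference of group II from group I was -1.44 and group IV stood 0.13 above group II.

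**Figure D2:**
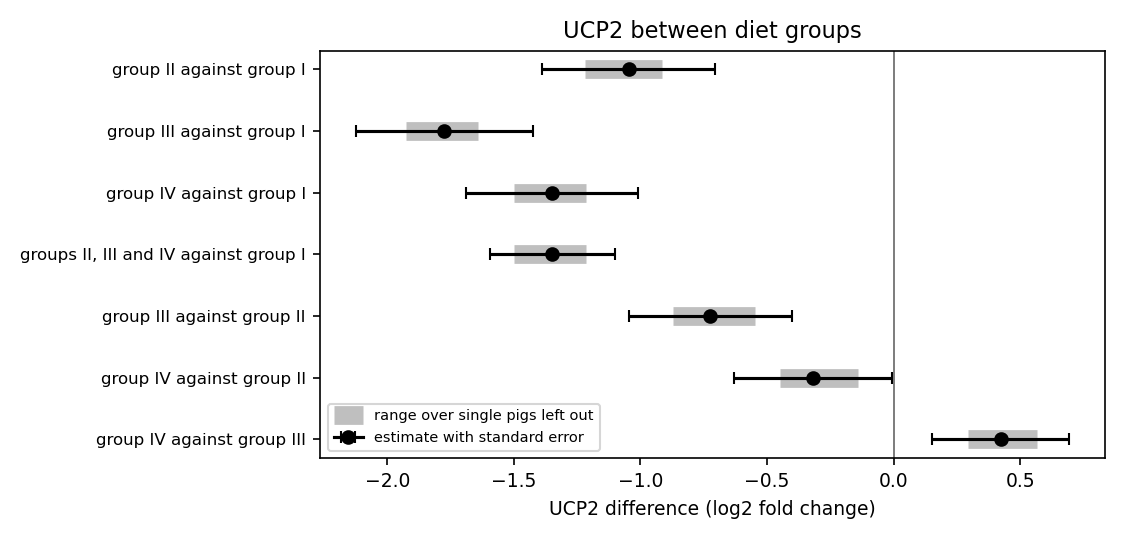
Log2 fold change of UCP2 (horizontal axis) in each of the 7 comparisons of diet groups (vertical axis). Points are edgeR estimates, bars are standard errors and grey bands are the range when single pigs were left out. All 4 comparisons with group I lie at -1.05 or lower, and no band in them reaches 0.

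Sex was not used to choose UCP2, so it could be tested, here as females against castrated males. Females and males did not differ in UCP2 by a detectable amount, with a log2 fold change of 0.0067 (SE 0.24) for females against males and diet group as covariate (adjusted p = 0.994, edgeR). In that fit 0.842% of all genes passed an adjusted p of 0.05 with a fold change above 1.3. Both identifiers of FASN were lower in females, by -0.49 (SE 0.21) and -0.44 (SE 0.21) on the log2 scale, and ACLY by -0.78 (SE 0.37), with none passing the adjusted threshold (adjusted p from 0.222 to 0.273, edgeR).

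In group I the level of UCP2 was 9.79 ± 6.10 CPM (SD, n = 4) in females and 12.4 ± 2.02 CPM (SD, n = 3) in males. In the combined groups II, III and IV it was 4.72 ± 2.08 CPM (SD, n = 8) in females and 3.80 ± 1.26 CPM (SD, n = 8) in males. The difference from group I was -1.06 (SE 0.38) in females and -1.69 (SE 0.27) in males on the log2 scale. The difference between the sexes in this respect was 0.63 (SE 0.51) and did not pass the test (adjusted p = 1.00, edgeR interaction term). Without pig 5 it was 1.00 and without pig 3 it was 0.36, both of them females of group I.

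FASN is counted on 2 identifiers. On ENSSSCG00000029944, group I had 7045 ± 2360 CPM (SD, n = 7) and group II 3559 ± 1093 CPM (SD, n = 6). Group III had 3804 ± 2634 CPM (SD, n = 5) and group IV 4541 ± 832 CPM (SD, n = 5). ACLY stood at 717 ± 414 CPM (SD, n = 7) for group I and 241 ± 63.8 CPM (SD, n = 6) for group II, and at 413 ± 554 CPM (SD, n = 5) and 493 ± 384 CPM (SD, n = 5) for groups III and IV. The group means of both enzymes were thus highest where UCP2 was highest, but their lowest mean was in group II and that of UCP2 in group III. That contrast rested on pig 48 of group III, at 8433 CPM of FASN and 1401 CPM of ACLY. The next pigs of group III had 3209 and 213 CPM, so all its other pigs lay under the group II means.

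Single pigs show where the genes went together and where they parted. Pigs 1 and 3, the low pigs of group I for UCP2, also had the lowest FASN of that group, at 3967 and 4435 CPM on ENSSSCG00000029944. Pig 5 had the highest values of all pigs for UCP2, for FASN at 10645 CPM and for ACLY at 1476 CPM. Pig 48 of group III had 8433 CPM of FASN and 1401 CPM of ACLY, levels like those of group I. Its UCP2 level of 4.46 CPM was the highest of group III and under all but 1 pig of group I. Pig 19 of group II had the lowest FASN of all pigs, at 1519 CPM, beside the highest UCP2 level outside group I.

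Over all 23 pigs, the log2 levels of UCP2 and FASN had r = 0.59 and rho = 0.62 on ENSSSCG00000029944 and r = 0.57 and rho = 0.62 on ENSSSCG00000023044. For ACLY the values were r = 0.61 and rho = 0.64. These values carry the diet differences for which UCP2 was chosen, so no p is read from them. The relation among pigs of the same diet does not rest on the diet differences. However, FASN and ACLY were named as partners of UCP2 with earlier results of these data known, so its p-values are not free of that choice. This relation within diets was examined in group I, in group II and over pigs after the mean of each diet group had been removed. This made 12 relations, whose 24 p-values were adjusted together by the Benjamini-Hochberg method, and none passed an adjusted p of 0.05.

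After removal of group means, UCP2 and ACLY had r = 0.47 over the 23 pigs (p = 0.00801, adjusted p = 0.138, two-sided permutation within groups). The adjusted p is 0.0343 only if the values that carry the diet differences are counted in, which makes 30 p-values. Spearman's rho was 0.42 (p = 0.0817, adjusted p = 0.280, permutation). Without pigs 48 and 52, the farthest from the median of ACLY once group means were removed, r was 0.44. Among the 16 pigs fed cDDGS, r was 0.42 (p = 0.0409, adjusted p = 0.164, permutation) and rho was 0.23 (p = 0.466, adjusted p = 0.621, permutation). There r fell to 0.22 without the same 2 pigs.

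For FASN on ENSSSCG00000029944, r within diet groups was 0.31 over the 23 pigs (p = 0.163, adjusted p = 0.356, permutation within groups) and rho was 0.31 (p = 0.205, adjusted p = 0.380, permutation). On ENSSSCG00000023044, r was 0.26 (p = 0.253, adjusted p = 0.380, permutation) and rho was 0.28 (p = 0.257, adjusted p = 0.380, permutation). Among the 16 pigs fed cDDGS, r was -0.028 on the first identifier (p = 0.924, adjusted p = 0.964, permutation) and -0.073 on the second (p = 0.814, adjusted p = 0.930, permutation), with rho at -0.067 and -0.12. Pig 19 decided the values over the 23 pigs, since r without it was 0.58 on the first identifier (unadjusted p = 0.00311, permutation) and 0.57 on the second (unadjusted p = 0.00355, permutation). Without pigs 19 and 48, the farthest from the median of FASN once group means were removed, r was 0.53 and 0.50.

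In group I, UCP2 and FASN on ENSSSCG00000029944 had r = 0.88 (n = 7, p = 0.0145, adjusted p = 0.138, exact permutation) and rho = 0.82 (n = 7, p = 0.0341, adjusted p = 0.164, exact permutation). Without pigs 1 and 5 r was 0.85. On ENSSSCG00000023044 r was 0.88 (n = 7, p = 0.0173, adjusted p = 0.138, exact permutation), and it fell to 0.48 without pigs 1 and 3. Different pigs were left out on each identifier, so 0.85 and 0.48 are not a like comparison. For ENSSSCG00000029944, r without pigs 1 and 3 was not computed. In group II, r on ENSSSCG00000029944 was -0.58 (n = 6, p = 0.269, adjusted p = 0.380, exact permutation) and rho -0.60 (n = 6, p = 0.242, adjusted p = 0.380, exact permutation). There r was -0.48 without pigs 19 and 20. On ENSSSCG00000023044 r in group II was -0.59 (n = 6, p = 0.249, adjusted p = 0.380, exact permutation) and rho -0.71 (n = 6, p = 0.136, adjusted p = 0.327, exact permutation). Without pigs 17 and 19 that r was -0.12. Whether the relation differs between these groups was not tested.

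For ACLY, r was 0.63 (n = 7, p = 0.136, adjusted p = 0.327, exact permutation) in group I and 0.33 without pigs 2 and 5. In group II it was 0.02 (n = 6, p = 0.975, adjusted p = 0.975, exact permutation) and 0.73 without pigs 19 and 22. Groups III and IV, with 5 pigs each, were too small for values of their own.

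**Figure D3:**
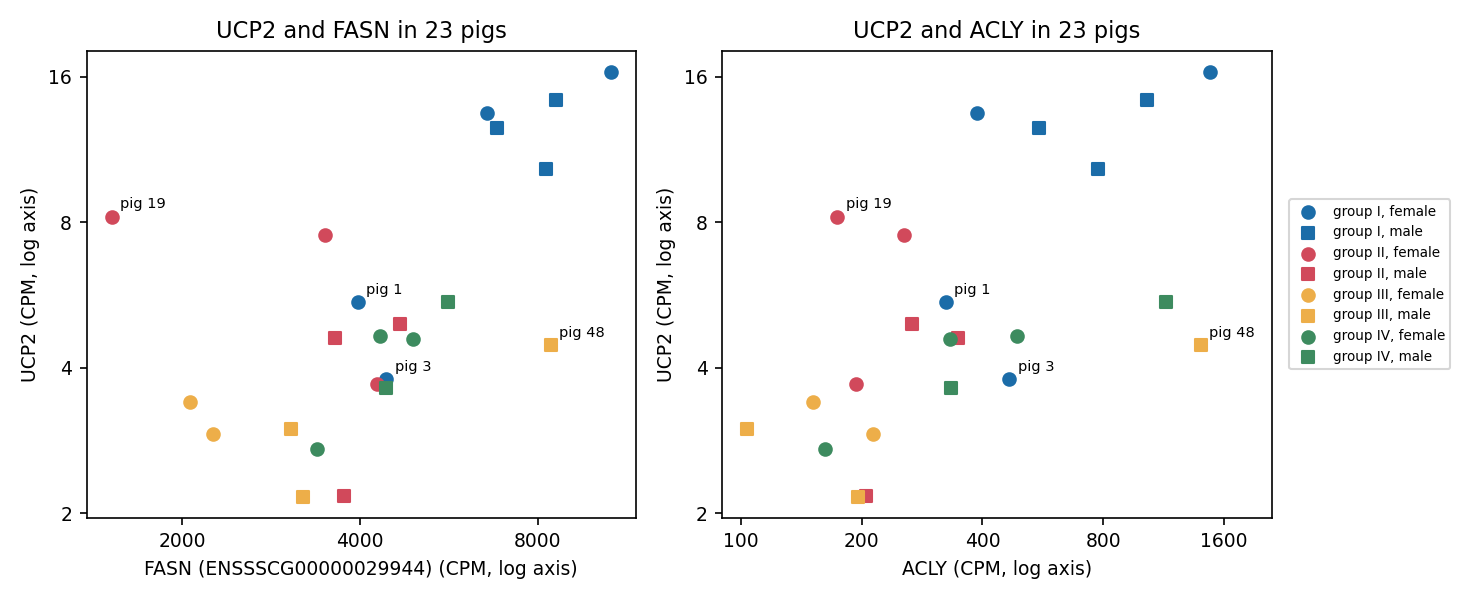
UCP2 level (vertical axis) against FASN on ENSSSCG00000029944 (left) and ACLY (right) in each of 23 pigs, in CPM on log axes, with colours for diet groups and shapes for sexes. Pigs 1 and 3 lie low in group I on both axes of the left panel, pig 19 has the lowest FASN of all, and pig 48 has the highest FASN, ACLY and UCP2 of group III.

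Of the 14 tested identifiers on the list of fatty acid synthesis, FASN and ACLY included, 8 were lower and 0 higher at an unadjusted p under 0.05 in the combined groups against group I, where 7.08% of all genes tested were lower and 8.69% higher. Their median log2 fold change was -0.59, against 0.01 over all genes. The log2 fold changes were -0.84 (SE 0.23) and -0.88 (SE 0.22) for FASN, -0.94 (SE 0.41) for ACLY and -0.75 (SE 0.22) for ACACA, which makes malonyl-CoA. They were -0.69 (SE 0.32) for SCD, the stearoyl-CoA desaturase, -0.87 (SE 0.32) for ME1, which supplies NADPH, and -0.87 (SE 0.23) for SLC25A1, the citrate carrier. MLXIPL, which encodes the carbohydrate-responsive factor ChREBP, had -0.37 (SE 0.13). None of the 14 passed the adjusted threshold, and 0 of 10749 genes did so with edgeR in this comparison, where 15.8% had an unadjusted p under 0.05. DESeq2 called 155 genes in the same comparison, 3 of them on this list, namely both identifiers of FASN (adjusted p = 0.0355 and 0.0227) and SLC25A1 (adjusted p = 0.0355).

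The count depended on the diet and on the share of reads outside genes. In group II, 12 of the 14 were lower at an unadjusted p under 0.05 (6.41% of all genes), and 4 each in group III (3.9%) and group IV (5.98%). With the share of reads outside genes as covariate, 6 were lower with group II, 9 with group III and 5 in the combined comparison. With group IV, 0 were then lower and 1 was higher with edgeR, and the median log2 fold change of the list turned from -0.29 to 0.17. Without a covariate, DESeq2 called 7 of the 14 at the adjusted threshold in group II, where it called 96 of 17980 genes. It called 0 of the 14 in group III (13 of 17980 genes) and 1 in group IV (133 of 17937 genes).

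UCP3 and the mitochondrial carriers showed no detectable difference of this kind. Of 5 tested identifiers, 0 passed an unadjusted p of 0.05 in the combined comparison with edgeR. DESeq2, run without the filter, tested 6 and 1 was lower, SLC25A14, which had from 0 to 8 reads per pig and was named after its value was seen. UCP3, best known from skeletal muscle, had 82.2 ± 29.3 CPM (SD, n = 7) in group I and 85.8 ± 35.8 CPM (SD, n = 16) in the combined groups, a log2 fold change of 0.06 (SE 0.27). ACTA1, the skeletal muscle actin, ranged from 0.885 to 1542 CPM over the pigs and its ranges overlapped between all groups. The ATP/ADP carriers SLC25A4 and SLC25A5 had -0.11 (SE 0.17) and -0.09 (SE 0.16).

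Of 9 tested genes of fatty acid oxidation and PPAR targets, 1 was higher at an unadjusted p under 0.05, CPT1A, which admits long-chain fatty acids to mitochondria, with 0.41 (SE 0.17), and 0 were lower. Among regulators, 0 of 9 passed that threshold with edgeR. PPARG, the main factor of fat cell formation, had 0.29 (SE 0.20) and PPARA -0.04 (SE 0.16). PPARGC1A, a coactivator of mitochondrial genes, had 0 reads in every pig on its identifier.

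Of 9 antioxidant enzymes and regulators, 3 were lower and 0 higher at an unadjusted p under 0.05, where 7.08% of all genes were lower and 8.69% higher. These were SOD2, the superoxide dismutase of mitochondria, with -0.50 (SE 0.14), and the mitochondrial thioredoxin TXN2 and its reductase TXNRD2, with -0.46 (SE 0.13) and -0.51 (SE 0.21). SOD2 passed the adjusted threshold with DESeq2 (adjusted p = 0.0414) and not with edgeR (adjusted p = 0.11). The peroxiredoxins PRDX3 and PRDX5, also found in mitochondria, had -0.16 (SE 0.16) and 0.17 (SE 0.19). SOD1 had -0.07 (SE 0.20), CAT -0.01 (SE 0.15) and NFE2L2 -0.03 (SE 0.09).

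**Figure D4:**
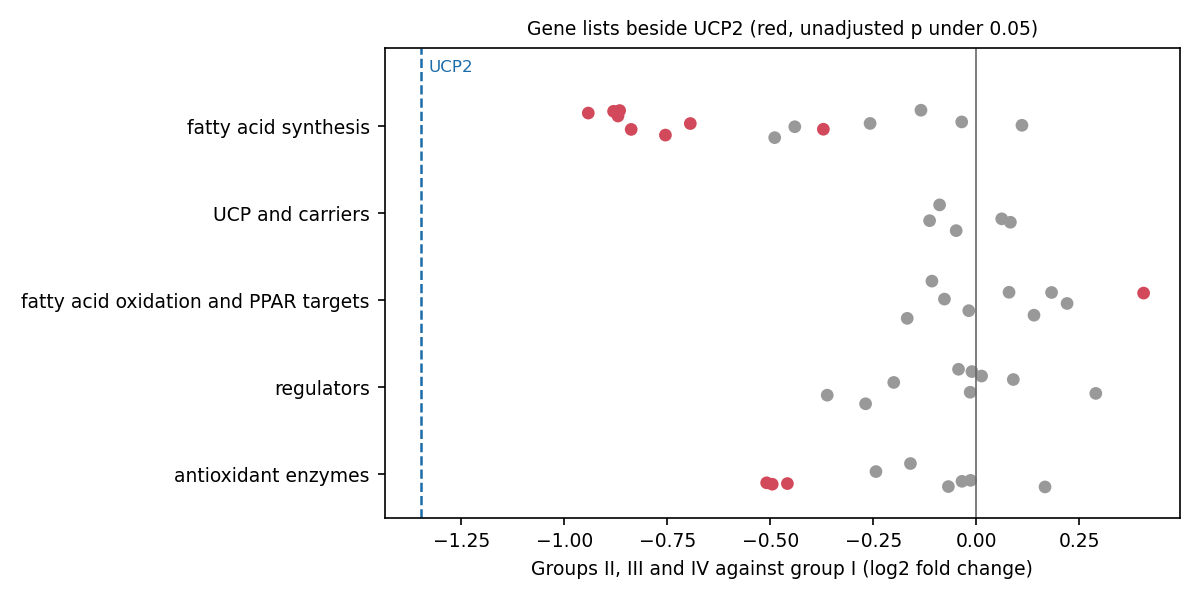
Log2 fold change of the combined groups II, III and IV against group I (horizontal axis) for tested genes of 5 lists (rows, with points spread vertically for legibility), red where the unadjusted p is under 0.05. The dashed line marks UCP2 at -1.35, lower than every gene on the lists, of which ACLY at -0.94 comes nearest.

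The genes beside UCP2 on the chromosome showed no detectable difference. PAAF1 had a log2 fold change of 0.00 (SE 0.16) and C2CD3 -0.10 (SE 0.11) in the combined comparison. DNAJB13, which overlaps UCP2, had from 0 to 3 reads per pig. The libraries were stranded, but the strand setting of the counting is not given in the sources used here, so reads of the shared bases cannot be assigned with certainty.

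The genes whose levels were most like UCP2 were ranked by Pearson's r of log2 levels over 23 pigs after removal of group means, as a description. The highest was NOP56, a nucleolar protein, with r = 0.88, but it had only 7.91 reads per pig on average. Next among genes with a symbol came RHBDF2 at 0.75, ALAS1, the first enzyme of heme synthesis, at 0.75, COQ3, of coenzyme Q synthesis, at 0.74, MOGAT2, a monoacylglycerol acyltransferase, at 0.73, DUS4L at 0.73 and POLR1C at 0.73. The 5th and 95th percentiles over 11038 genes were -0.40 and 0.42. ACLY ranked 343rd and FASN 1305th and 1752nd. The lowest r of a gene with a symbol were those of RUFY3, at -0.70, and OLFM3, at -0.68.

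MOGAT2 stood high in both rankings, with r = 0.80 when group means were kept. It had 24.2 ± 20.7 CPM (SD, n = 7) in group I and 5.36 ± 4.91 CPM (SD, n = 16) in the combined groups, and it lies 1.573 Mb from UCP2 on the same chromosome. With group means kept, TUBB, a tubulin, led at 0.83 and CYP2U1, a cytochrome P450, came next at 0.80, while SVIL was lowest at -0.80. In these values all genes of a pig share its library depth and its share of reads outside genes, both of which differ between pigs.

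Adipocyte markers were present in all pigs, PLIN1 of the lipid droplet from 740 to 1469 CPM among them. Of 4 tested adipocyte markers, 3 were lower at an unadjusted p under 0.05 in the combined groups (7.08% of all genes), CIDEC by -0.42 (SE 0.11), LIPE by -0.45 (SE 0.14) and PLIN4 by -0.49 (SE 0.23). The summed level of the 4 ran from 2435 to 3540 CPM in group I and from 1916 to 3386 CPM in group II. It ran from 2229 to 2740 CPM in group III and from 2161 to 2691 CPM in group IV. Of 6 tested macrophage markers, 5 were higher (8.69% of all genes) and 1, MS4A7, lower with -1.35 (SE 0.34). The summed macrophage level ran from 42.0 to 171 CPM for group I and 183 to 360 CPM for group II, and from 78.2 to 238 CPM and 92.3 to 234 CPM for groups III and IV. The part of either marker list in the UCP2 difference was not tested. In bulk tissue, fewer cells of a type and less RNA per cell cannot be told apart.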

How the data were processed

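RNA of backfat from 23 pigs was sequenced. According to the study's methods, stranded total RNA libraries were trimmed with FLEXBAR, mapped with TopHat and counted with HTSeq. The deposited values are raw counts per Ensembl gene, not normalized, with 5 summary rows per pig that stayed out of library sizes. The study names Sus scrofa 11.1, which the counts, having no coordinates, could not check. Symbols came from a reference name table for 11804 identifiers and from the study's gene tables for 7.

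Counts were analysed with edgeR 4.0.16 (TMM, filterByExpr, glmQLFit, glmQLFTest) in R 4.3.3, on all genes of the pigs compared, with Benjamini-Hochberg adjustment. CPM used TMM over the 11039 genes that passed the filter in 23 pigs, and correlations used log2(CPM + 0.5) with 100000 permutations or exact enumeration. Alternatives were DESeq2 1.42.0, median-ratio factors, no filter, covariates, all pigs in 1 fit and single pigs left out. Functions were tested on simulated data. UCP2, the lists and the tests were chosen with earlier results of these data known. Within each list, named genes have an identifier and pass the filter. The 10 most and 5 least similar genes follow a ranking by r, of which those with a symbol are named. No 2 pigs of a group agreed within sampling noise, and each pig was 1 sample.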

Additional observations from a re-analysis of the deposited data

Results flagged for a closer look

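Single pigs stood apart from their group for the lipogenic genes and not for UCP2. In group III, pig 48 was far above the other pigs for FASN, at 8433 CPM on ENSSSCG00000029944 where the next pig had 3209 CPM, and at 3193 CPM on ENSSSCG00000023044 where the next had 1319 CPM. The same pig had 1401 CPM of ACLY where the next had 213 CPM. In group II, pig 19 was far below the others for FASN on ENSSSCG00000023044, at 538 CPM where the next pig had 1388 CPM. Each gap exceeded Dixon's 95% critical value. The 2 identifiers of FASN are 1 gene, so these are not independent. Chance flags about 1 in 20 groups, and 20 groups of a gene and a diet were examined, 4 of which were flagged.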

How the results depend on the processing

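No paired analysis was possible because the pigs of each diet were different animals and the labels pair none of them across diets. The UCP2 differences between diets moved by less than the spread between pigs under all 141 alternatives, single pigs left out included. That spread was 0.34 to 0.69 on the log2 scale, a wide limit that leaving out 1 pig could hardly reach. Within it, group IV against group II changed sign from -0.32 to 0.13 without the 3 pigs above 65% of reads outside genes. Group III against group II went from -0.72 to -0.32 without them. Leaving out single pigs gave -1.22 to -0.91 for group II against group I, -1.93 to -1.64 for group III, -1.50 to -1.22 for group IV and -1.50 to -1.22 for the combined groups. The sex difference, near 0, changed sign to -0.00089 with median-ratio factors and to -0.0031 without a filter, and ran from -0.092 to 0.11 with single pigs left out. The interaction with sex ran from 0.36 to 1.00 in that way and passed the test under none of the 26 alternatives. The relation of UCP2 to FASN within diet groups passed an unadjusted permutation p of 0.05 on ENSSSCG00000029944 with the share of reads outside genes regressed out (r = 0.47), and on both identifiers without the 3 pigs above 65% of such reads, at 0.66 and 0.66, an alternative chosen after seeing the data. With single pigs left out, r ran from 0.21 to 0.58 and from 0.17 to 0.57. That of ACLY ran from 0.41 to 0.53. With the share of reads outside genes as covariate, the fatty acid synthesis genes lower than in group I became 6 with group II, 9 with group III and 5 combined. With group IV none stayed lower, 1 was higher, and the median turned from -0.29 to 0.17. The count of carriers moved from 0 to 1 without a filter and with DESeq2, which both tested 6 in place of 5, and that of oxidation genes from 1 to 2 without the 3 pigs. PAAF1 changed sign to -0.0079 without a filter and to -0.0046 with DESeq2. Over all genes, the combined comparison gave 0 calls with edgeR and 155 with DESeq2. The edgeR count stayed 0 with median-ratio factors and with either covariate. It was 2 without a filter, 1 with all pigs in 1 fit and 9 without the 3 pigs above 65% of reads outside genes. With single pigs left out it reached 43, without pig 1. The causes were not tested. With 5 to 87 UCP2 reads per pig, counting error alone limits what differences among groups II, III and IV could show.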
